A study of Mus musculus with 6 samples.

Results

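Platelet-derived growth factor (PDGF) receptors and ligands were followed in a mouse mammary tumour line, Tri-PyMT, through 5 genes, namely the receptors Pdgfra and Pdgfrb and the ligands Pdgfa, Pdgfb and Pdgfc. They are 5 of the 30743 features with an expression value in each of 6 RNA-sequencing samples. They were chosen by symbol and on their FPKM in the 3 groups, because the receptors were seen to differ in how they moved with epithelial-mesenchymal transition (EMT) state and with drug. Their levels and differences are therefore given as a description without a test, and tests are kept for other genes of the pathway.

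The samples formed 3 groups of 2. The first group was CTX-treated GFP+ cells, sorted from cultures held for 7 days in 4 µM 4-hydroperoxy-cyclophosphamide (CTX), a pre-activated form of the DNA-alkylating drug cyclophosphamide. The second was untreated GFP+ cells and the third untreated RFP+ cells, which the labels call EMT and non-EMT. All 6 came from the same line grown in serum, which itself carries PDGF, and were sorted by colour before RNA extraction. As background, the line comes from a mouse in which the polyoma middle T oncogene drives mammary tumours. Its colour switch is set by a Cre recombinase under the promoter of S100a4 (Fsp1), is permanent, and so records past activity of that promoter and not the state of a cell at sorting. CTX-treated RFP+ cells were not analysed here. Whether the replicates are separate cultures is not stated in the labels, and p-values then reflect nothing beyond the spread of these samples, which may be technical. The time in culture is given only for CTX, so drug, time in culture and survival of a part of the cells cannot be told apart.

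PDGFs are secreted dimers that bring receptor tyrosine kinases together in pairs. PDGFRα (Pdgfra) binds the A, B and C chains, and PDGFRβ (Pdgfrb) binds mainly B and D. In the mammary gland, as in most organs, the receptors are known for fibroblasts and the mural cells of vessels while epithelial cells make ligand, and receptor expression in carcinoma cells is a known feature of EMT.

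Values are FPKM as the authors deposited them, that is, fragments scaled to transcript length and to the mapped fragments of a library. Low values fell in fixed steps, from which the depth of a library relative to RFP+ replicate 1 was estimated as 0.794 to 1.099. The thinnest member measurement, Pdgfb in untreated GFP+ replicate 1, rested on about 120 fragments, which gives a counting error of 9.2%. For the other members the lowest support was about 610 fragments or more and the counting error at most 4%. Most genes were lower in untreated GFP+ replicate 1, whose size factor by median ratios was -0.40 (log2) where the other samples had 0.01 to 0.12. Differences are therefore given both as deposited and after scaling by these factors (median-ratio scaling). The CTX pair was the closest, with log2 ratios between its replicates spread by a robust SD of 0.0762, where the untreated GFP+ pair had 0.34 and the RFP+ pair 0.293, and an SD over the CTX pair may understate the spread between cultures.

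The labels were set against marker lists. The summed level of 7 mammary epithelial markers was 474 and 453 FPKM in CTX-treated GFP+ cells, 215 and 396 FPKM in untreated GFP+ cells and 823 and 1078 FPKM in RFP+ cells. In untreated GFP+ minus RFP+ cells 4 of the 7 fell and 0 rose in limma, against 1.78% and 0.115% of all genes tested, and after scaling 4 fell and 1 rose, against 1.77% and 1.03%. The sum of 8 mesenchymal markers was 4117 and 4055 FPKM with CTX, 3328 and 4023 FPKM in untreated GFP+ and 2550 and 2027 FPKM in RFP+ cells. In untreated GFP+ minus RFP+ cells 0 of 8 passed as deposited and 2 rose after scaling. This list holds S100a4, whose promoter sets the colour, so the sum is not independent of the sort. S100a4 had 1569 and 1539 FPKM with CTX, 1785 and 1754 FPKM in untreated GFP+ and 1261 and 704 FPKM in RFP+ cells.

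Pdgfra, the receptor for A, B and C chains, had 13.5 and 13.3 FPKM in CTX-treated GFP+ cells, 10.7 and 15.8 FPKM in untreated GFP+ cells, and 6.43 and 5.23 FPKM in RFP+ cells. Every GFP+ sample, treated or not, was above both RFP+ samples, and the treated pair lay between the untreated GFP+ samples. The means were 13.4 ± 0.143, 13.2 ± 3.60 and 5.83 ± 0.846 FPKM for CTX-treated GFP+, untreated GFP+ and RFP+ cells (SD, n = 2 each). On the log2(FPKM + 1) scale, where the change of a low gene comes out too small, untreated GFP+ minus RFP+ was 1.04 (SE 0.23) as deposited and 1.30 (SE 0.11) after scaling. CTX-treated minus untreated GFP+ was 0.04 (SE 0.23) as deposited and -0.24 (SE 0.11) after scaling, so its sign depended on the scaling. CTX-treated GFP+ minus RFP+ was 1.08 (SE 0.23) and 1.06 (SE 0.11). In these sorted populations, more cells with a transcript and more transcript per cell cannot be told apart, here and for every gene below.

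Pdgfrb, the receptor for B and D chains, followed another order. It had 8.07 and 8.22 FPKM in CTX-treated GFP+ cells, 17.8 and 19.3 FPKM in untreated GFP+ cells, and 10.1 and 8.75 FPKM in RFP+ cells. The untreated GFP+ pair stood highest, the RFP+ pair next and the CTX-treated pair lowest, with no overlap between any of the groups. The means were 8.15 ± 0.106, 18.5 ± 1.09 and 9.40 ± 0.933 FPKM for CTX-treated GFP+, untreated GFP+ and RFP+ cells (SD, n = 2 each). Untreated GFP+ minus RFP+ was 0.91 (SE 0.17) as deposited and 1.18 (SE 0.13) after scaling. CTX-treated minus untreated GFP+ was -1.09 (SE 0.17) as deposited and -1.37 (SE 0.13) after scaling, a mean in treated cells 0.439 times that in untreated ones. CTX-treated GFP+ minus RFP+ was -0.18 (SE 0.17) and -0.19 (SE 0.13), a gap close to its SE, although the 4 samples did not overlap.

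**Figure D1:**
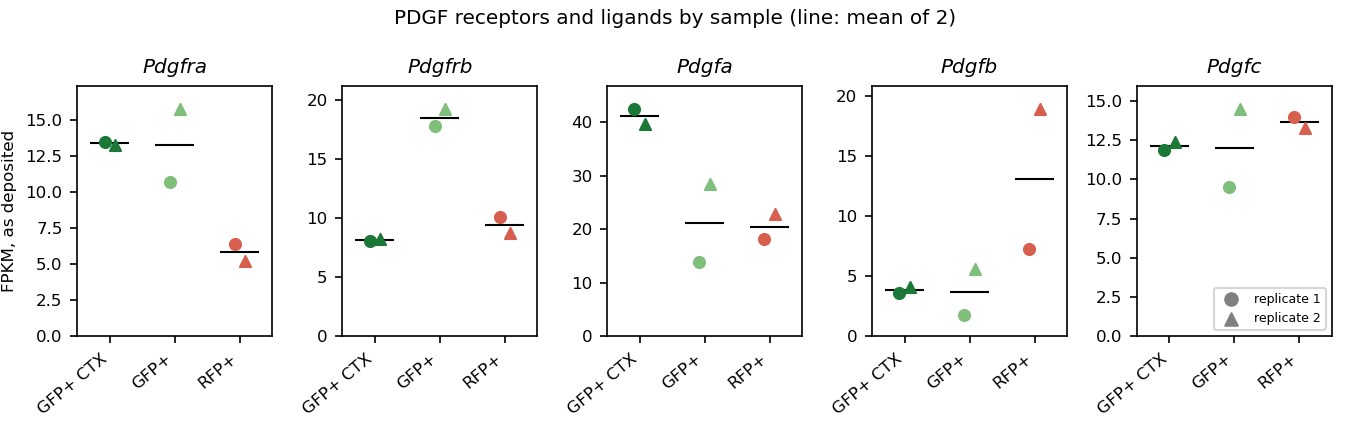
FPKM of the 5 genes in each sample, with the groups on the horizontal axis and a separate vertical scale starting at 0 for each gene. Circles are replicate 1, triangles replicate 2 and lines the mean of 2, and a reader should see Pdgfra at 10.7 to 15.8 FPKM in all 4 GFP+ samples, while Pdgfrb is at 17.8 and 19.3 FPKM in the untreated GFP+ samples alone.

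Because both receptors are given per length in the same sample, their ratio does not depend on the scaling of a library. Pdgfrb over Pdgfra was 0.598 and 0.619 in CTX-treated GFP+ cells, 1.66 and 1.22 in untreated GFP+ cells, and 1.57 and 1.67 in RFP+ cells. The ratio was below 1 in both treated samples and above 1 in all 4 untreated ones, and the untreated GFP+ and RFP+ samples overlapped. The sum of both receptors was 21.6 and 21.5 FPKM with CTX, 28.4 and 35.1 FPKM in untreated GFP+ cells, and 16.5 and 14.0 FPKM in RFP+ cells. Summed receptor RNA was thus highest in untreated GFP+ cells and lowest in RFP+ cells, with no overlap.

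Pdgfa, which encodes the chain that binds PDGFRα alone, had 42.5 and 39.7 FPKM in CTX-treated GFP+ cells, 13.8 and 28.4 FPKM in untreated GFP+ cells, and 18.1 and 22.8 FPKM in RFP+ cells. Both treated samples were above all 4 untreated ones, and the untreated GFP+ and RFP+ samples overlapped. The means were 41.1 ± 2, 21.1 ± 10.4 and 20.4 ± 3.27 FPKM for CTX-treated GFP+, untreated GFP+ and RFP+ cells (SD, n = 2 each). CTX-treated minus untreated GFP+ was 1.01 (SE 0.32) as deposited and 0.73 (SE 0.24) after scaling. Its size depended on the spread-out untreated pair, with 0.52 left without untreated GFP+ replicate 1 and 1.51 without replicate 2. Untreated GFP+ minus RFP+ was -0.03 (SE 0.32) as deposited and 0.24 (SE 0.24) after scaling, within its SE and of a sign that the scaling set. CTX-treated GFP+ minus RFP+ was 0.98 (SE 0.32) and 0.97 (SE 0.24).

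Pdgfb, which encodes the chain that binds both receptors, had 3.55 and 4.05 FPKM in CTX-treated GFP+ cells, 1.79 and 5.62 FPKM in untreated GFP+ cells, and 7.26 and 18.9 FPKM in RFP+ cells. All 4 GFP+ samples were below both RFP+ samples, but the untreated replicates lay far apart. The means were 3.80 ± 0.352, 3.70 ± 2.71 and 13.1 ± 8.21 FPKM for CTX-treated GFP+, untreated GFP+ and RFP+ cells (SD, n = 2 each). Untreated GFP+ minus RFP+ was -1.58 (SE 0.51) as deposited and -1.36 (SE 0.52) after scaling, and ranged from -2.21 without RFP+ replicate 1 to -0.94 without RFP+ replicate 2. Either of these fits sets both untreated GFP+ replicates against 1 RFP+ replicate, so the difference between replicates enters its value. CTX-treated GFP+ minus RFP+ was -1.42 (SE 0.51) and -1.42 (SE 0.52), and was -2.05 and -0.79 without the same replicates. CTX-treated minus untreated GFP+ was 0.16 (SE 0.51) as deposited and -0.05 (SE 0.52) after scaling, well within the SE.

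Pdgfc, which encodes a chain secreted in a latent form that must be cut before it binds PDGFRα, had 11.9 and 12.4 FPKM in CTX-treated GFP+ cells, 9.5 and 14.5 FPKM in untreated GFP+ cells, and 14.0 and 13.3 FPKM in RFP+ cells. The groups lay close together, with means of 12.1 ± 0.319, 12 ± 3.53 and 13.6 ± 0.545 FPKM for CTX-treated GFP+, untreated GFP+ and RFP+ cells (SD, n = 2 each). Untreated GFP+ minus RFP+ was -0.20 (SE 0.22) and 0.07 (SE 0.10) after scaling. CTX-treated minus untreated GFP+ was 0.04 (SE 0.22) and -0.23 (SE 0.10) after scaling, and CTX-treated GFP+ minus RFP+ was -0.15 (SE 0.22) and -0.16 (SE 0.10). The first and second of these changed sign with the scaling.

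Counted over the 5 genes in untreated GFP+ minus RFP+ cells, both receptors were higher without overlap, as were 4.95% of the 13080 genes tested. Pdgfb alone was lower without overlap, as were 41.5% of genes. In CTX-treated minus untreated GFP+ cells Pdgfa was higher without overlap, as were 51.9% of genes, and Pdgfrb was lower, as were 12.4%. In CTX-treated GFP+ minus RFP+ cells Pdgfra and Pdgfa were higher without overlap, against 39.5% of genes, and Pdgfrb, Pdgfb and Pdgfc were lower, against 37.7%. These patterns chose the genes, so the shares are background only.

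The place of each member among all genes was read after scaling. In untreated GFP+ minus RFP+ cells 99.2% of tested genes had a smaller difference than Pdgfra, 99.1% a smaller one than Pdgfrb and 1.08% a smaller one than Pdgfb. For Pdgfa and Pdgfc it was 83.1% and 61.7%. In CTX-treated minus untreated GFP+ cells the figures were 0.68% for Pdgfrb, 27.6% for Pdgfra, 28.3% for Pdgfc, 45.2% for Pdgfb and 89.2% for Pdgfa. The receptors thus stood side by side near the top of the genes in the first comparison and apart in the second. Since the receptors were chosen for this pattern, their places are a description only.

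**Figure D2:**
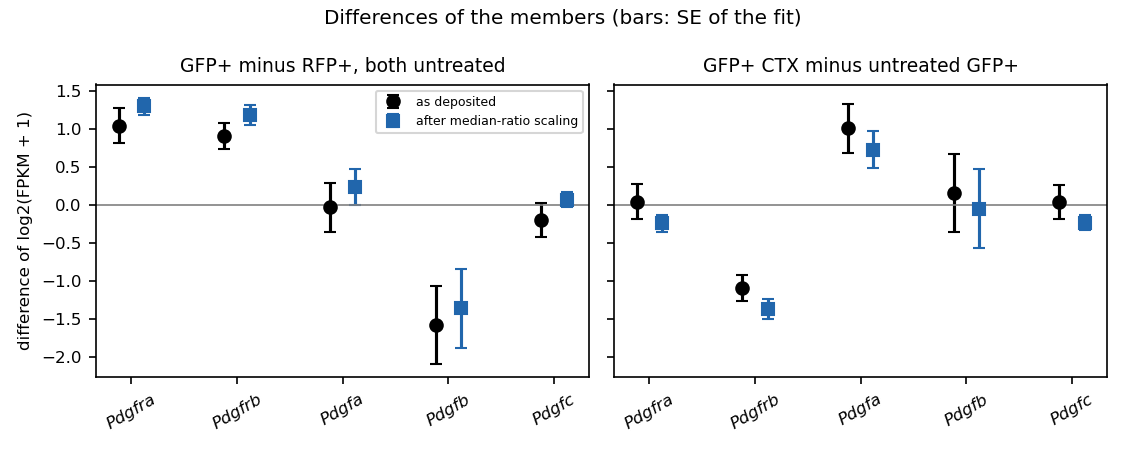
Differences of log2(FPKM + 1) with the SE of the fit for the 5 genes, as deposited (black circles) and after median-ratio scaling (blue squares), for untreated GFP+ minus RFP+ cells on the left and CTX-treated minus untreated GFP+ cells on the right. Pdgfra and Pdgfrb are at 1.04 and 0.91 on the left, while on the right Pdgfrb is at -1.09, Pdgfa at 1.01 and Pdgfra at 0.04.

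The start of the Pdgfra gene is shown because its transcript was higher in every GFP+ sample than in RFP+ cells. The stretch is the 250 bases before the RefSeq start on the plus strand, at chr5:75152001-75152250 of GRCm38.p6, where it overlaps no annotated exon of GENCODE M21. It was searched on both strands for the E-box CANNTG, the form CAGGTG that ZEB and SNAIL factors bind, the form CATCTG that TWIST factors bind, the CCAAT box, the GC box GGGCGG and the AP-1 motif TGANTCA. Capitals mark the match, CATCTG, 182 bases before the start, which is also the match to the general E-box.

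Pdgfra: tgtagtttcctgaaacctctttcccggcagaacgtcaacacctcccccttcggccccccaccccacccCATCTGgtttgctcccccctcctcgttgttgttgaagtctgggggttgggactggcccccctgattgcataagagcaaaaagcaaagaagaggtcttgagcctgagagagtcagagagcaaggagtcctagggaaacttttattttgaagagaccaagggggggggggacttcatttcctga

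Of 27025 promoter stretches of this length, 66% held CANNTG and 14.5% held CATCTG. The ZEB and SNAIL form was in 17.1%, CCAAT in 34.5%, GGGCGG in 32.9% and TGANTCA in 6.87% of stretches, and none of these 4 was in the one printed. Among the factors, Zeb1, a repressor of epithelial genes, had 13.8 and 13.0 FPKM in CTX-treated GFP+ cells, 6.64 and 10.1 FPKM in untreated GFP+ cells and 4.55 and 4.72 FPKM in RFP+ cells. In untreated GFP+ minus RFP+ cells Zeb1 rose only after scaling, by 0.96 (limma adjusted p = 0.0228), against 0.71 as deposited (adjusted p = 0.198). Twist1, a factor of the family whose form is the marked match, had 46.1 and 47 FPKM with CTX, 23.9 and 44.1 FPKM in untreated GFP+ and 22 and 30.4 FPKM in RFP+ cells. The untreated groups overlapped, at 0.32 (SE 0.30, limma adjusted p = 0.563). Of 8 tested factors reported to act on PDGF receptor genes, none passed as deposited in untreated GFP+ minus RFP+ or in CTX-treated minus untreated GFP+ cells by limma. At an unadjusted p under 0.05 there were 2 in the first and 1 in the second, against 2316 and 3901 of all 13080 genes.

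Pdgfra lies beside Kit and then Kdr, other receptor tyrosine kinase genes, on chromosome 5 in the RefSeq gene order. Kit, the receptor for stem cell factor, had 0.345 and 0.411 FPKM in CTX-treated GFP+ cells, 1.54 and 1.62 FPKM in untreated GFP+ cells, and 6.01 and 5.28 FPKM in RFP+ cells. Kit was lowest with CTX and highest in RFP+ cells, with no overlap between groups, whereas for Pdgfra the GFP+ groups overlapped and both stood above RFP+ cells. Kit fell by 1.36 (SE 0.16, limma adjusted p = 0.0161) in untreated GFP+ minus RFP+ cells and by 0.91 (SE 0.16, adjusted p = 0.0152) in CTX-treated minus untreated GFP+ cells. Kitl, the ligand of Kit, rose in CTX-treated minus untreated GFP+ cells only after scaling (0.54, limma adjusted p = 0.0351). Kdr, a receptor of vascular endothelial growth factor, was under 0.3 FPKM in all 6 samples. Pdgfrb lies beside Csf1r, the receptor of a macrophage growth factor, which was under 0.25 FPKM in all 6.

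The ligands were also compared as shares of the summed FPKM of Pdgfa, Pdgfb, Pdgfc and Pdgfd within a sample. Pdgfd, the other chain that needs cutting after secretion, was the lowest of these 4 in all 6 samples, at 1.77 and 2.33 FPKM in CTX-treated GFP+, 1.59 and 1.14 FPKM in untreated GFP+, and 1.79 and 0.608 FPKM in RFP+ cells. Pdgfa made up 71.1% and 67.9% of the sum in CTX-treated GFP+ cells, 51.7% and 57.2% in untreated GFP+ cells, and 44.0% and 41.0% in RFP+ cells. Pdgfb made up 5.94% and 6.93% with CTX, 6.70% and 11.3% in untreated GFP+ cells, and 17.6% and 34.0% in RFP+ cells. The share of Pdgfa was highest with CTX and lowest in RFP+ cells, without overlap, and that of Pdgfb was highest in RFP+ cells. Pdgfc held 20% and 21.2% with CTX, 35.6% and 29.2% in untreated GFP+ cells, and 34.0% and 23.9% in RFP+ cells. The sum itself was 59.8 and 58.4 FPKM with CTX, 26.7 and 49.7 FPKM in untreated GFP+ cells, and 41.2 and 55.5 FPKM in RFP+ cells.

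**Figure D3:**
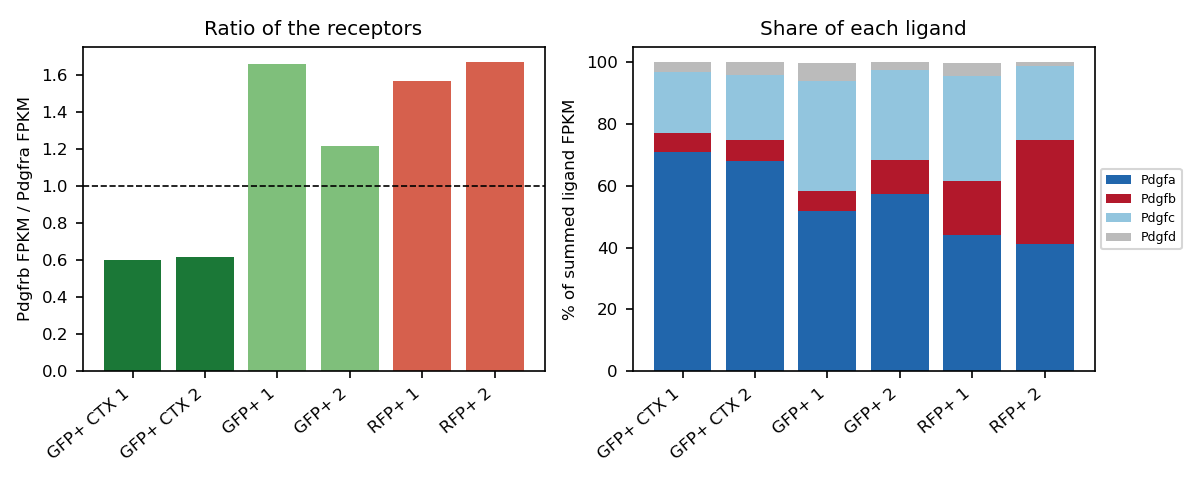
Ratio of Pdgfrb to Pdgfra FPKM (left, bars, dashed line at 1) and share of each ligand in the summed ligand FPKM in percent (right, stacked bars) for each of the 6 samples. The ratio is 0.598 and 0.619 in the CTX-treated samples and 1.22 to 1.67 in the untreated ones, and the Pdgfa share is 71.1% and 67.9% with CTX against 41.0% to 57.2% without.

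The untreated replicates differed in Pdgfb, and growth-factor-induced early genes differed with it. For Pdgfb, replicate 2 minus replicate 1 on the log2 scale was 0.15 in CTX-treated GFP+, 1.25 in untreated GFP+ and 1.27 in RFP+ cells. After scaling it was 0.15, 0.97 and 1.31 in the same order. Of 21 early genes and feedback inhibitors tested, after scaling 4 were higher in replicate 2 of CTX-treated cells, 19 in that of untreated GFP+ cells and 20 in that of RFP+ cells. Of all genes tested 48.1%, 50.5% and 50.5% were higher there. The median difference of these 21 after scaling was -0.04 in CTX-treated GFP+, 1.23 in untreated GFP+ and 0.80 in RFP+ cells, against 0 for all genes. Egr1, an immediate early transcription factor, had 39.4 and 39.0 FPKM with CTX, 25.2 and 195 FPKM in untreated GFP+ cells, and 29.3 and 148 FPKM in RFP+ cells. Pdgfb was thus higher in the same untreated replicates as the early genes. Each untreated group held both replicate numbers, and as deposited the shift in Pdgfb was nearly equal in both groups. Such a shift leaves the difference of the group means as it is but adds to its SE. Untreated GFP+ against RFP+ cells had 1.79 against 7.26 FPKM in replicate 1 and 5.62 against 18.9 FPKM in replicate 2. Why the replicates differed in Pdgfb and the early genes was not tested.

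Other genes of the pathway were taken from 7 lists with 116 genes, of which 106 were tested. In untreated GFP+ minus RFP+ cells 1 rose, 5 fell and 100 did not pass in limma, with 23 at an unadjusted p under 0.05 and a median of -0.15. Over all 13080 genes 0.115% rose and 1.78% fell, with 2316 at an unadjusted p under 0.05 and a median of -0.24. After scaling 3 rose and 4 fell, against 1.03% and 1.77% of all genes, and the list median was 0.12, against 0.01 over all genes. Falls numbered 0 without either RFP+ replicate, 2 without untreated GFP+ replicate 1 and 30 without untreated GFP+ replicate 2.

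Proteins that process ligands were among those that fell, with 2 of 9 tested against 1.78% of all genes. Pcsk6, a proprotein convertase, had 6.85 and 7.64 FPKM in untreated GFP+ cells and 26.1 and 26.2 FPKM in RFP+ cells, and fell by 1.72 (SE 0.16, limma adjusted p = 0.0102). St14 encodes matriptase, a membrane serine protease reported to cut PDGF chains, and had 10.2 and 19.2 FPKM against 56.6 and 74.2 FPKM, a fall by 2.13 (SE 0.30, adjusted p = 0.0217). The groups did not overlap for either gene. The other 7 of 9 tested genes of this list did not pass, among them the tissue plasminogen activator Plat, which cuts the C chain, at 0.47 (SE 0.24, adjusted p = 0.339), and the urokinase Plau, which cuts the D chain, at -0.09 (SE 0.47, adjusted p = 0.923).

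Of 39 tested receptor-proximal signalling proteins 1 rose, 1 fell and 37 did not pass, and of 16 co-receptors and regulators of the receptors 0 rose, 1 fell and 15 did not pass. Of all genes 0.115% rose and 1.78% fell. Grb14, an adaptor that binds activated receptors, had 30.1 and 38.0 FPKM in untreated GFP+ cells and 16.8 and 16.0 FPKM in RFP+ cells, and rose by 1.0 (SE 0.18, limma adjusted p = 0.0490). Its relative Grb7 had 0.816 and 1.12 FPKM against 3.87 and 3.69 FPKM, a fall by 1.28 (SE 0.18, adjusted p = 0.0217). Slc9a3r1, the regulator that fell, encodes NHERF1, a scaffold known to bind the tail of the PDGF receptor. It had 51.6 and 52.8 FPKM in untreated GFP+ cells against 135 and 117 FPKM in RFP+ cells and fell by 1.25 (SE 0.16, adjusted p = 0.0185), but did not pass after scaling (-0.97, adjusted p = 0.0502). Pdgfrl, which encodes a soluble receptor-like protein, had 28.5 and 37.2 FPKM in untreated GFP+ cells against 22.4 and 19.1 FPKM in RFP+ cells and rose only after scaling (0.91, adjusted p = 0.0213, against 0.63 and adjusted p = 0.192 as deposited). The co-receptor Nrp1 did not pass (0.26, SE 0.27, adjusted p = 0.605), nor did Pdgfd (0.15, SE 0.28, adjusted p = 0.765). Of 21 early genes and feedback inhibitors 0 passed in limma, and 0 had an unadjusted p under 0.05, against 2316 of all 13080 genes.

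In CTX-treated minus untreated GFP+ cells 12 of the 106 rose, 1 fell and 93 did not pass, with 36 at an unadjusted p under 0.05 and a median of 0.31. Over all 13080 genes 12.3% rose and 0.474% fell, with 3901 at an unadjusted p under 0.05 and a median of 0.25. The share of the lists that rose was thus near the background. After scaling 12 rose and 6 fell, against 12% and 7% of all genes. When the close CTX pair was averaged into 1 sample, 1 rose and 0 fell, and without either CTX replicate likewise 1 rose and 0 fell. The count of rises was 2 without either RFP+ replicate, 8 without untreated GFP+ replicate 1 and 47 without replicate 2.

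Of 7 tested genes of the list of other PDGF and VEGF family ligands and the receptor-like gene, 3 rose with CTX, 0 fell and 4 did not pass. Of all genes 12.3% rose and 0.474% fell. Pgf, placental growth factor, had 9.19 and 9.96 FPKM in CTX-treated GFP+ cells and 1.31 and 2.76 FPKM in untreated GFP+ cells, and rose by 1.84 (SE 0.25, limma adjusted p = 0.00669). Figf (Vegfd) had 10.1 and 10.1 FPKM against 2.89 and 5.09 FPKM and rose by 1.19 (SE 0.26, adjusted p = 0.0338). Vegfa had 130 and 130 FPKM against 43.3 and 78.7 FPKM and rose by 1.14 (SE 0.28, adjusted p = 0.0438). Pgf was the 1 rise that still passed with the CTX pair averaged. Vegfb had 11.7 and 11.4 FPKM with CTX against 19.2 and 15 FPKM without, lower without overlap, and did not pass as deposited (-0.52, SE 0.22, adjusted p = 0.166) or after scaling (-0.80, adjusted p = 0.101). Pdgfd was at 0.36 (SE 0.28, adjusted p = 0.425), and after scaling Pdgfrl fell by 0.69 (adjusted p = 0.0148) and Vegfc, a lymphatic growth factor, by 0.49 (adjusted p = 0.0454).

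Of 9 tested genes that process or restrain the ligands, 1 rose with CTX, 0 fell and 8 did not pass. Of all genes 12.3% rose and 0.474% fell. The 1 that rose was Plat, which had 45.3 and 44.8 FPKM in CTX-treated GFP+ cells and 16 and 25 FPKM in untreated GFP+ cells, a rise by 1.13 (SE 0.24, limma adjusted p = 0.0294). Plau had 31.3 and 31.7 FPKM against 6.69 and 17.7 FPKM and did not pass, at 1.44 (SE 0.47, adjusted p = 0.0945). St14 had 18.6 and 18.2 FPKM against 10.2 and 19.2 FPKM, which overlapped (0.37, SE 0.30, adjusted p = 0.447). The convertase Furin, which cuts A and B chains inside the cell, had 23.2 and 22.7 FPKM against 30.2 and 31.2 FPKM. It fell only after scaling (-0.69, adjusted p = 0.0323).

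Among 39 tested signalling genes 3 rose with CTX, namely Src, Fyn and Map2k1, against 12.3% of all genes. The kinase Src had 26.3 and 26.8 FPKM in CTX-treated GFP+ cells and 9.46 and 14.4 FPKM in untreated GFP+ cells, and rose by 1.12 (SE 0.24, limma adjusted p = 0.0301). Its relative Fyn rose by 0.96 (SE 0.19, adjusted p = 0.0231) and Map2k1, the kinase above ERK, by 0.80 (SE 0.19, adjusted p = 0.0417). The other 36 of 39 tested signalling proteins did not pass as deposited, and after scaling Pik3r1, a regulatory subunit of PI3-kinase, fell by 0.65 (adjusted p = 0.0268) and Map2k2 by 0.41 (adjusted p = 0.0480). The phosphatase Ptprj, which acts on PDGFRβ, rose by 0.77 (SE 0.19, adjusted p = 0.0490). The scaffolds Slc9a3r1 and Slc9a3r2 rose by 0.77 (SE 0.16, adjusted p = 0.0285) and 0.69 (SE 0.17, adjusted p = 0.0468), and neither passed after scaling. Nrp1 was at 0.53 (SE 0.27, adjusted p = 0.246).

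Of the 21 early genes and feedback inhibitors, 2 rose with CTX, against 12.3% of all genes. Fosl1, a subunit of AP-1, had 29.0 and 28.7 FPKM in CTX-treated GFP+ cells and 6.08 and 10.7 FPKM in untreated GFP+ cells, and rose by 1.72 (SE 0.35, limma adjusted p = 0.0252). The ERK phosphatase Dusp4 had 11.5 and 10.5 FPKM against 1.87 and 5.06 FPKM, and rose by 1.52 (SE 0.35, adjusted p = 0.0373). Fos had 45.1 and 43.5 FPKM with CTX against 98.8 and 386 FPKM without, and did not pass (adjusted p = 0.0796), the untreated samples differing among themselves.

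**Figure D4:**
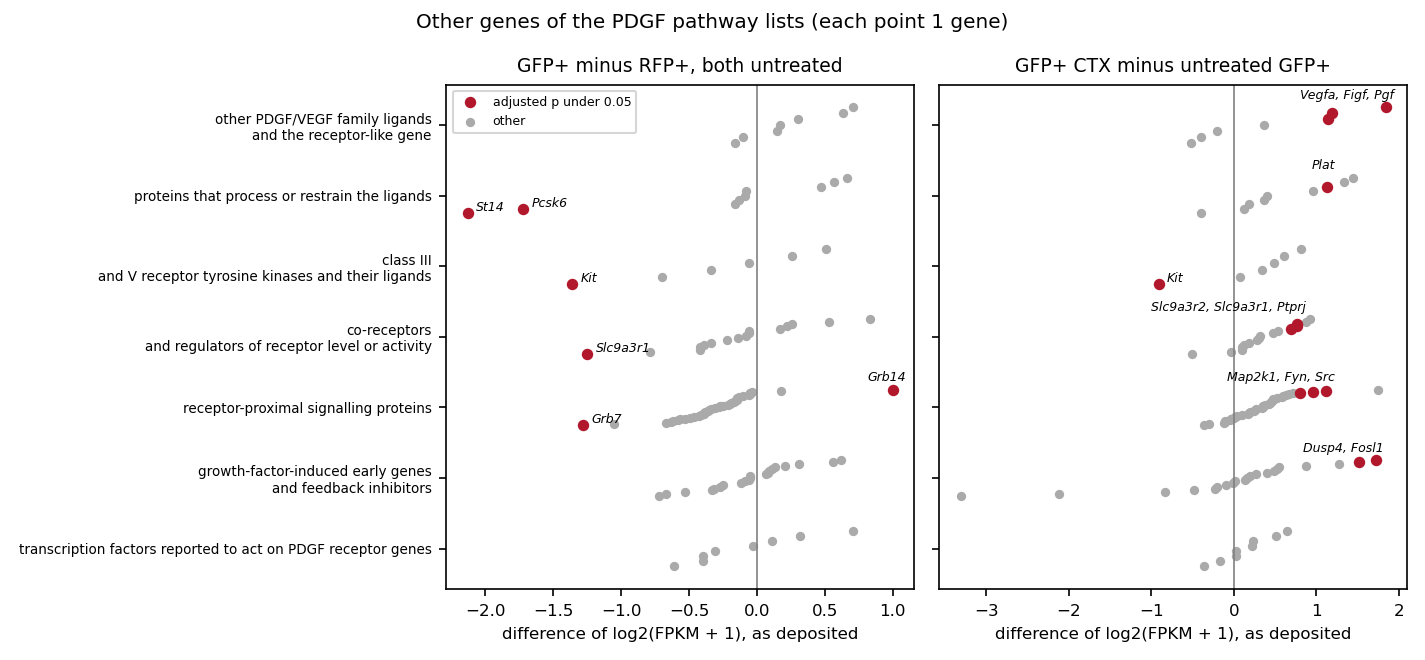
Differences of log2(FPKM + 1) as deposited for the 106 tested genes of 7 pathway lists, 1 point a gene and 1 row a list, for untreated GFP+ minus RFP+ cells (left) and CTX-treated minus untreated GFP+ cells (right), with red for an adjusted p under 0.05. On the left 1 gene (Grb14) is red on the positive side and 5 on the negative side, and on the right 12 are red on the positive side and 1 (Kit) on the negative side.

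In CTX-treated GFP+ minus RFP+ cells 12 of the 106 rose and 5 fell, against 11% and 5.99% of all genes. An unadjusted p under 0.05 was found for 37 of the 106, against 4433 of all 13080 genes. After scaling 20 rose and 11 fell, against 17.3% and 13.6% of all genes, and with the CTX pair averaged 4 rose and 3 fell. Without single samples the rises numbered 1 (RFP+ replicate 1), 2 (RFP+ replicate 2), 4 (either CTX replicate) and 25 (either untreated GFP+ replicate). Pcsk6, St14, Kit and Grb7, which fell in untreated GFP+ minus RFP+ cells, also fell here, by 1.60, 1.76, 2.27 and 0.94 (limma adjusted p = 0.00233, 0.0117, 0.000956 and 0.0170). Grb14 rose by 1.0 (adjusted p = 0.0138), Zeb1 by 1.35 (adjusted p = 0.0107), Pgf by 2.15 (adjusted p = 0.00315) and Plat by 1.60 (adjusted p = 0.00821). Each of these groups also enters one of the comparisons above, so the values are not independent of those.

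The 5 protein-coding genes nearest to Pdgfra in their levels over the 6 samples were Grb14, Renbp, Fkbp10, Ddr2 and Matn2. Likeness was the root mean square difference of log2(FPKM + 1) after centring each gene, and the 11653 protein-coding genes compared had a median of 0.613 from Pdgfra. It was 0.085 for Grb14, 0.106 for Renbp, 0.111 for Fkbp10 (a collagen chaperone), 0.119 for Ddr2 (a collagen receptor kinase) and 0.121 for Matn2 (a matrix protein). Ddr2 had 11.4 and 8.81 FPKM in CTX-treated GFP+, 7.82 and 10.9 FPKM in untreated GFP+ and 4.05 and 3.93 FPKM in RFP+ cells. As for Pdgfra, all 4 GFP+ samples stood above both RFP+ samples, which the choice by likeness favours, so it is no separate support.

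The 5 nearest to Pdgfrb were Fbn2 (0.134), Col1a1 (0.165), Sspn (0.192), Cxcl12 (0.197) and Olfml3 (0.213), against a median of 0.632. Fbn2 encodes a fibrillin of elastic fibres, and Cxcl12 a chemokine. Cxcl12 had 23.6 and 23.9 FPKM in CTX-treated GFP+, 45.0 and 57.5 FPKM in untreated GFP+ and 20.8 and 19.8 FPKM in RFP+ cells. Its untreated GFP+ pair stood highest, as for Pdgfrb, which the choice by likeness favours, but its treated pair was above RFP+ cells. Col1a1, the type I collagen chain, was low throughout, with 1.05 and 0.873 FPKM with CTX, 2.10 and 2.31 FPKM in untreated GFP+ and 1.14 and 0.901 FPKM in RFP+ cells. The receptors were 0.58 from each other, near the median distance of a gene from either.

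Markers of the cells in which the receptors are best known were also read. Of 11 fibroblast markers, 5 reached 1 FPKM in any sample, and Col1a2, Lum, Thy1, Fap, Dpt and Pi16 were under 1 FPKM in all 6. Their sum was 430 and 423 FPKM in CTX-treated GFP+ cells, 449 and 625 FPKM in untreated GFP+ cells and 248 and 250 FPKM in RFP+ cells, most of it Col6a1, so it was higher in all 4 GFP+ samples, as was Pdgfra. Of 11 mural markers, 5 reached 1 FPKM, with sums of 27.3 and 26.8, 17.3 and 20.1, and 23.5 and 29.5 FPKM in CTX-treated GFP+, untreated GFP+ and RFP+ cells. Cspg4, Abcc9, Kcnj8, Myh11, Cnn1 and Higd1b were under 1 FPKM in all 6, and the sum was lowest in untreated GFP+ cells, where Pdgfrb was highest. Notch3, a mural receptor, had 7.61 and 7.14 FPKM with CTX, 0.124 and 0.801 FPKM in untreated GFP+ and 0.376 and 1.31 FPKM in RFP+ cells. Acta2, smooth muscle actin and the most abundant mural marker, had 9.75 and 10 FPKM with CTX, 14.4 and 12.8 FPKM in untreated GFP+ and 18 and 20.1 FPKM in RFP+ cells, the order opposite to that of Notch3 between the GFP+ groups. Dcn, a fibroblast marker, had 84 and 87.2 FPKM with CTX, 30.4 and 53.5 FPKM in untreated GFP+ and 7.31 and 12.3 FPKM in RFP+ cells. Postn, another, had 43.1 and 43.5, 160 and 110, and 80.4 and 47.3 FPKM. In untreated GFP+ minus RFP+ cells 1 of 5 tested fibroblast markers rose in limma and 3 after scaling, against 0.115% and 1.03% of all genes, and 0 fell. Of 5 tested mural markers 0 passed there. In CTX-treated minus untreated GFP+ cells 3 of 5 tested mural markers rose and 0 fell in limma. Of 5 tested fibroblast markers 0 rose and 2 fell, against 12.3% higher and 0.474% lower of all genes tested. The mural markers Des, Rgs5 and Notch3 reached 1 FPKM in 2 samples only through the CTX-treated pair. They were tested only because they were high there, so the mural count favours a rise and is no support. The part of such cells in the receptor levels was not tested.

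Markers of other sources of PDGF were also read. None of 7 endothelial markers reached 1 FPKM in any sample, with sums of 1.34 and 1.27 FPKM with CTX, 0.103 and 0.343 FPKM in untreated GFP+ and 0.198 and 0.258 FPKM in RFP+ cells. Of 5 platelet and megakaryocyte markers 2 reached 1 FPKM, with sums of 7.13 and 6.39 FPKM with CTX, 2.16 and 3.32 FPKM in untreated GFP+ and 2.68 and 2.84 FPKM in RFP+ cells. Of 8 leukocyte markers 2 reached 1 FPKM, and the sum was 33.8 and 32.5 FPKM with CTX, 3.69 and 7.47 FPKM in untreated GFP+ and 4.80 and 4.88 FPKM in RFP+ cells. It was nearly all Cd68, a lysosomal protein that other cells also make. Lyz2 had 2.17 and 2.1 FPKM with CTX against 0.195 and 0.637 FPKM in untreated GFP+ cells. Ptprc was at most 0.0128 FPKM, and Emr1 and Cd3e were listed at 0 in all 6. In CTX-treated minus untreated GFP+ cells 2 of 2 tested leukocyte markers and 2 of 2 tested platelet markers rose in limma, against 12.3% of all genes. The leukocyte marker Lyz2 and the platelet marker Ppbp reached 1 FPKM in 2 samples only through the CTX-treated pair. Lyz2 and Ppbp were tested only because they were high there, so these counts favour a rise and are no support. The sums of all these lists were higher in the CTX-treated samples, as was Pdgfa, and the part of such cells in the level of Pdgfa was not tested.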

How the data were processed

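Sorted Tri-PyMT cells were profiled by RNA sequencing of TruSeq libraries, per the labels' protocols. The authors deposited FPKM, and the submitters' processing notes name CASAVA 1.8.2, FastQC, TopHat, Cufflinks, HTSeq and the mm9 build, with settings not given in the sources used here. The members and lists were chosen with earlier results of these data known. Differences were fitted with limma 3.58.1 (R 4.3.3) on log2(FPKM + 1), with an intensity trend, all 6 samples and 3 residual degrees of freedom. The 13080 genes that reached 1 FPKM in 2 samples or more were tested. Tests were two-sided, with Benjamini-Hochberg adjustment over all genes and a threshold of 0.05. Named pathway genes were up to 4 each way per list past the threshold in the first and second comparison, those passing only after scaling, and Pdgfd, Pdgfrl, Plat, Plau and Nrp1. Fos, Egr1, Vegfb, Twist1, genes beside the members, and the markers and like genes given with levels were picked after their values were seen. The main fit did not treat same-numbered samples as pairs, although deviations of untreated GFP+ and RFP+ samples correlated at 0.313. Spread that same-numbered samples share thus stayed in its SE. Fragments were estimated from the steps among values under 0.1 FPKM, and intervals cover counting error only. The promoter stretch came from RefSeq, which had entries for 3 of the 5 members. No count model was used. The procedure was tested on simulated data. Accession-named features (7392) and symbols turned into dates (25) were not named. Alternatives were other scalings, pseudocounts and filters, a replicate block, a fit of the 4 samples compared and leaving out each sample, and, added after seeing the data, scaling with the CTX pair averaged and a crossed block.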

Additional observations from a re-analysis of the deposited data

How the results depend on the processing

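For the 5 PDGF genes, 161 values under the alternatives moved by less than the spread between replicates and 4 by more, all of Pdgfrb. Leaving out 1 sample could not move a value by more than this spread, since a mean of 2 then shifts by less than their SD. Those values therefore say nothing on stability. No difference larger than the spread changed sign, but smaller ones did. For Pdgfra, CTX-treated minus untreated GFP+ went from 0.04 to -0.24 with median-ratio scaling. The untreated GFP+ minus RFP+ difference of Pdgfrb was 1.18 with median-ratio scaling and 1.16 with quantile normalization, and its CTX-treated minus untreated GFP+ difference -1.37 and -1.42.

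Counts of pathway genes past the threshold were less stable. In untreated GFP+ minus RFP+ cells (1 higher, 5 lower), 3 were higher with either scaling and 0 with a pseudocount of 0.1 or 0.5, no filter, a mean filter, only the 4 samples compared, the CTX pair averaged, or that with scaling. Lower calls numbered 0 with no filter, 2 with only the 4 samples and 0 with scaling and averaging. Leaving out 1 sample gave 0 to 2 higher and 0 to 30 lower. In CTX-treated minus untreated GFP+ cells (12 higher, 1 lower), 6 were higher with a pseudocount of 0.1, 7 without a filter, 8 with a mean filter, 2 with only the 4 samples, 1 with averaging and 0 with scaling and averaging. Lower calls numbered 6 and 8 with median-ratio and quantile scaling, 3 without accession-named or short RNA features, and 0 with averaging, alone or scaled. Without the features of those kinds 18 were higher. Leaving out 1 sample gave 1 to 47 higher and 0 to 2 lower. In CTX-treated GFP+ minus RFP+ cells (12 higher, 5 lower), median-ratio scaling gave 20 and 11, quantile normalization 24 and 11, only the 4 samples 25 and 15, averaging 4 and 3, and scaling with averaging 2 and 2. Leaving out 1 sample gave 1 to 25 higher and 2 to 15 lower. Among named pathway genes 315 values kept their side of the threshold, 148 lost it, 22 gained it and 1 reversed, Map2k2 in CTX-treated minus untreated GFP+ cells at 0.02 without untreated GFP+ replicate 2 (adjusted p = 0.927) and -0.25 without replicate 1. Where the cause of a change was not in the construction of the alternative, the cause was not tested.

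With the replicate number as a block, calls in untreated GFP+ minus RFP+ cells were 2 higher and 7 lower, in CTX-treated minus untreated GFP+ cells 22 and 4, and in CTX-treated GFP+ minus RFP+ cells 23 and 8. Deviations of same-numbered samples correlated at 0.313 for untreated GFP+ with RFP+, at -0.108 for CTX-treated with untreated GFP+ and at -0.0354 for CTX-treated GFP+ with RFP+. With the numbers of the CTX pair crossed the counts were 2 and 7, 23 and 4, and 23 and 8. The CTX replicates differed by more than counting noise (chi-square per gene of 1.19 over 1167 low genes, p = 7.83e-06) and were kept as 2 samples. The chi-square per gene was 2.28 for the untreated GFP+ pair and 1.89 for the RFP+ pair. This test cannot tell separate cultures from separate libraries of the same culture. With 2 samples a group, depth limits Pdgfb most, at about 120 fragments.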

Other observations

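Genes beside the ligands were read in the RefSeq gene order. Pdgfa lies on chromosome 5 between Fam20c and Prkar1b, leaving aside a predicted gene that was listed at or near 0. Prkar1b, a regulatory subunit of protein kinase A, had 1.18 and 1.1 FPKM in CTX-treated GFP+ cells and 0.273 and 0.369 FPKM in untreated GFP+ cells. The difference was 0.70 (SE 0.14). Prkar1b reached 1 FPKM in the CTX-treated samples alone and was tested only because it was high there, so no p-value is given. The secretory kinase Fam20c had 12.6 and 11.8 FPKM against 11.1 and 11.6 FPKM and did not pass, at 0.09 (SE 0.17, limma adjusted p = 0.747). Of the genes beside Pdgfb on chromosome 15, the Polycomb protein gene Cbx7 had 2.37 and 6.01 FPKM in untreated GFP+ cells and 5.93 and 9.30 FPKM in RFP+ cells. Its difference was -0.80 (SE 0.37, adjusted p = 0.305). Syngr1, a vesicle protein gene, had 0.482 and 0.427 FPKM in untreated GFP+ cells against 2.05 and 1.60 FPKM in RFP+ cells and did not pass, at -0.95 (SE 0.20, adjusted p = 0.0739). Rpl3, directly after Pdgfb, was at -0.44 (SE 0.21, adjusted p = 0.314), and Apobec3, before Cbx7, at -0.47 (SE 0.16, adjusted p = 0.23). The median over all genes was -0.24. Near Pdgfc on chromosome 3, Glrb was at -0.51 (SE 0.52, adjusted p = 0.59) and Ctso at 0.30 (SE 0.20, adjusted p = 0.427) in the same comparison.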
